A study of Mus musculus with 4 samples.

Results

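The Hox genes are the 39 genes of the mouse Hoxa, Hoxb, Hoxc and Hoxd clusters. They were taken by symbol, as every gene whose name is Hox, a cluster letter and a paralogue number. Earlier results of these data were known when this set was chosen. All 39 are present among the 50593 genes of the deposited table. The table compares the sciatic nerve, the large nerve of the hindlimb, of mice that model hereditary transthyretin (TTR) amyloidosis with that of their controls. The labels list 2 mice in each group, all at 6 months of age and of the strain 129S1/SvImJ, and the methods name n = 4 sciatic nerves, which may be the total or the number in a group. Mice labelled HSF V30M carry a human TTR transgene with the V30M mutation, have a disrupted endogenous Ttr gene and are heterozygous for a deletion of Hsf1, the heat shock transcription factor. Mice labelled HSF WT share the heterozygous Hsf1 deletion and carry no transgene, so the groups differ in both the transgene and the endogenous Ttr. The sources used here give neither the promoter of the transgene nor the stretch of nerve that was taken.

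Hox genes encode homeodomain transcription factors that give cells their position along the body axis and the limbs. Within each cluster the genes are switched on in the order in which they lie on the chromosome, so that low paralogue numbers mark the hindbrain and neck, middle numbers the trunk, and high numbers the lumbar region, the tail and the far end of the limbs. Adult cells such as fibroblasts keep much of the Hox pattern they acquired in the embryo, so that the position of a tissue can be read from which members are on.

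For each gene the table holds 1 value per group, in FPKM, which is the number of sequenced fragments corrected both for the length of the transcript and for library depth, so that levels of different genes can be set side by side. Values of single mice are not part of it, and for that reason neither an error between mice nor a test between the groups is given. The worth of 1 fragment was read back from genes with few fragments, which gives a range of fragment numbers behind each value and an exact 95% interval for each ratio. These intervals assume the shortest transcript of the gene, which makes them wide, and they cover counting error only. In a whole nerve, fewer cells of a type and less RNA per cell cannot be told apart.

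The targeted genes were checked against the labels first. Mouse Ttr, null by the label in HSF V30M mice, was listed at 6.10 FPKM in the group labelled HSF V30M and at 0 in the group labelled HSF WT, where a count of 0 allows up to 0.197. This goes against the label as it stands, and reads of the human transgene and of the mouse gene cannot be told apart in this table. Hsf1, of which both groups lack 1 copy by their labels, was lower in HSF V30M, at 7.94 FPKM, than in HSF WT, at 15.0 FPKM. The labels give no difference in Hsf1 copies between the groups, and the cause of this gap was not tested. Groups are therefore named below as they are labelled.

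Hox genes of the neck, trunk and lumbar levels were on in the nerve, and those of the posterior ends of the clusters were near or at 0. The total over the 39 genes was 80.9 FPKM in the group labelled HSF V30M and 73.8 FPKM in the group labelled HSF WT. Of the members, 23 reached 1 FPKM in at least 1 group and 17 in both, 11 were above 0 but below 1 in both groups, between 0.0389 and 0.74, and 5 were listed at 0 in both. The Hoxc cluster carried 43.9% of the summed Hox level in HSF V30M and 46.1% in HSF WT, the Hoxa cluster 29.9% and 36.7%, the Hoxb cluster 17.8% and 10.8%, and the Hoxd cluster 8.44% and 6.41%. Hoxc6, a gene of the thoracic level, was the highest member in both groups, and 4 of the 5 highest members were the same. Across the 39 genes the levels of the groups had a Spearman correlation of 0.960, a description over genes that share libraries.

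**Figure D1:**
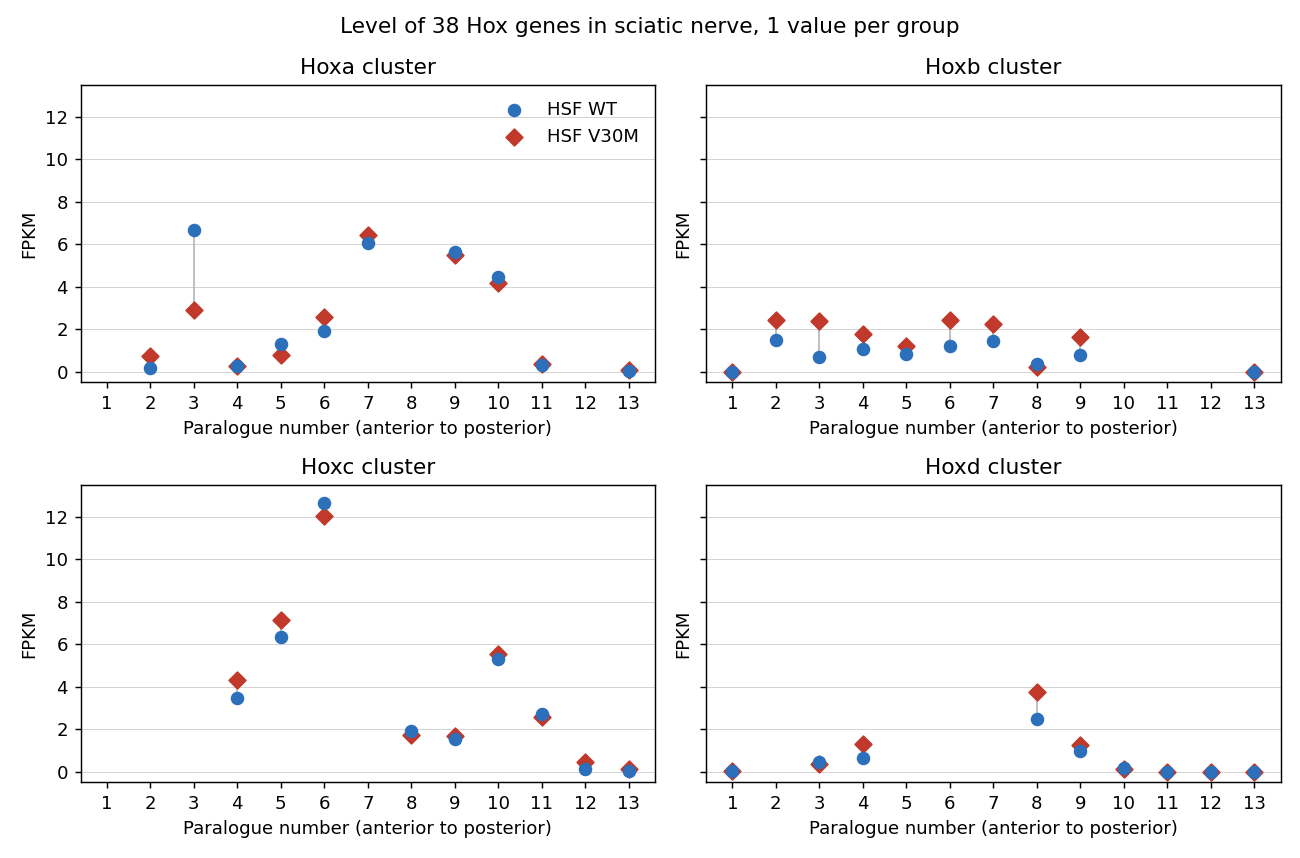
FPKM (vertical axis) of 38 Hox genes by paralogue number (horizontal axis) in the Hoxa, Hoxb, Hoxc and Hoxd clusters; circles are HSF WT and diamonds HSF V30M, 1 value per group. The pattern of both groups peaks at Hoxc6, with 12.04 and 12.6 FPKM, and falls to 0 at Hoxd11, Hoxd12 and Hoxd13.

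Summed over clusters, the level was spread over paralogue groups 3 to 10 and fell after group 10. These sums mix the cell types of a whole nerve and do not by themselves place it along the axis. Group 2, of the hindbrain, summed to 3.17 FPKM in HSF V30M and to 1.68 FPKM in HSF WT. Of the groups of the neck, group 3 was at 5.63 and 7.83 FPKM, group 4 at 7.66 and 5.43 FPKM and group 5 at 9.17 and 8.49 FPKM. Group 6 was the highest, with 17.1 and 15.8 FPKM, of which Hoxc6 alone gave 12.04 and 12.6 FPKM. Groups 9 and 10 followed with 10.1 and 8.89 and with 9.86 and 9.92 FPKM. From group 10 the level dropped to 2.92 and 3.04 FPKM in group 11, to 0.45 and 0.136 in group 12 and to 0.21 and 0.108 in group 13. The genes that pattern the foot and tail were thus at a small fraction of the level of those that pattern the lumbar region, in both groups.

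**Figure D2:**
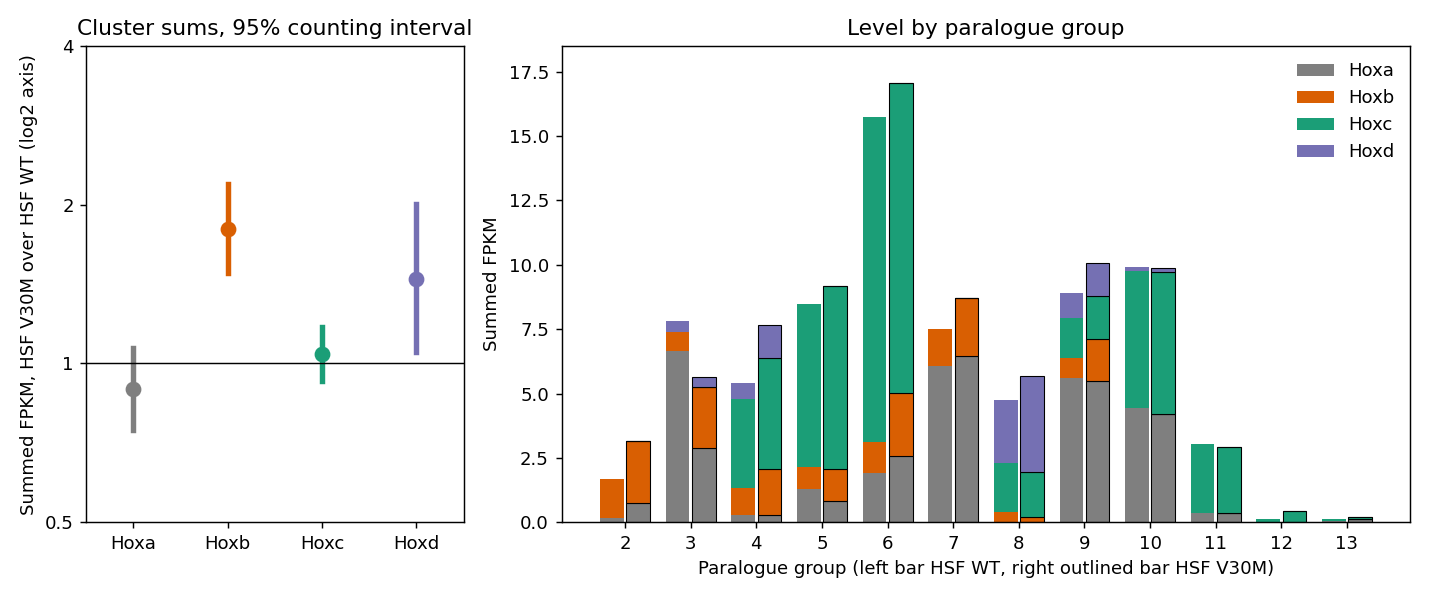
Left, ratio of the summed FPKM of each cluster, HSF V30M over HSF WT, on a log2 axis, with the exact 95% interval for counting error. Right, summed FPKM of paralogue groups 2 to 13, stacked by cluster, with HSF WT as the left bar and HSF V30M as the right, outlined bar; the Hoxb interval runs from 1.48 to 2.19, and paralogue group 6 is the highest in both groups.

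The Hoxc cluster (chromosome 15, from 102921103 to 103036852 in GRCm38) held the highest levels and had ratios near 1. Its members lie in the order from Hoxc13 to Hoxc4 on the plus strand, and the anterior end lacks paralogues 1 to 3 in mammals. Hoxc4, at neck level, was at 4.30 FPKM in HSF V30M and 3.45 FPKM in HSF WT. Hoxc5 was at 7.12 and 6.34 FPKM, and Hoxc6 at 12.04 and 12.6 FPKM. Levels were then lower at Hoxc8, which sets motor neuron identity at the level of the forelimb, with 1.72 and 1.90 FPKM, and at Hoxc9, which sets the thoracic identity of motor neurons, with 1.68 and 1.54 FPKM. They were higher again at Hoxc10, a gene of the lumbar spinal cord and hindlimb, with 5.54 and 5.29 FPKM, and stood at 2.56 and 2.69 FPKM at Hoxc11. The posterior end was near silent, with Hoxc12 at 0.45 and 0.136 FPKM and Hoxc13, a gene of hair and nail, at 0.10 and 0.0499 FPKM. Over the 7 Hoxc genes with a mean of at least 1 FPKM the ratio of HSF V30M to HSF WT lay between 0.904 and 1.25, and that of the cluster sum was 1.04 (interval 0.928 to 1.17). The split among Hoxc5 to Hoxc10 is uncertain, since Hoxc5 shares exons with Hoxc10 and all 5 genes sit in 1 locus of the authors' table, and their summed level was 28.1 and 27.7 FPKM.

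The Hoxa cluster (chromosome 6, from 52162417 at Hoxa2 to 52260880 at Hoxa13, minus strand) was on in its middle and off at both ends. Hoxa2, a gene of the hindbrain, was at 0.74 FPKM in HSF V30M and at 0.163 FPKM in HSF WT. It thus had a ratio of 4.53 (interval 1.38 to 23.5) at a level below 1 FPKM in both groups. Behind it are 25 to 30 fragments in HSF V30M and 4 to 5 in HSF WT. Hoxa2 overlaps exons of Gm28308 on its own strand, in a locus of 12 genes, so its share of the reads is uncertain. Hoxa7 was at 6.45 and 6.05 FPKM, Hoxa9 at 5.49 and 5.62 FPKM and Hoxa10, which patterns the lumbar region and the thigh, at 4.19 and 4.45 FPKM. The interval of each of these 3 ratios spans 1 (0.690 to 1.66 for Hoxa7, 0.545 to 1.78 for Hoxa9 and 0.660 to 1.35 for Hoxa10). Hoxa6 was at 2.57 and 1.92 FPKM and Hoxa5, best known from lung and diaphragm, at 0.81 and 1.31 FPKM, also with intervals that span 1 (0.752 to 2.47 and 0.363 to 1.05). Hoxa4 was at 0.29 and 0.265 FPKM. Hoxa11, which patterns the lower leg and forearm, was at 0.36 and 0.346 FPKM, and Hoxa13, which patterns hand and foot, at 0.11 and 0.0582 FPKM.

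With 1 FPKM added to both values, Hoxa3 was the only Hoxa gene with a mean of at least 1 FPKM to pass 1.5-fold. On the FPKM as deposited Hoxa5 also passed, at 1.61-fold lower in HSF V30M. Hoxa3, which patterns the pharyngeal arches and the neck, was at 2.89 FPKM in HSF V30M and at 6.66 FPKM in HSF WT. It ranked 2 among the Hox genes in HSF WT, against 9 in HSF V30M. The level of Hoxa3 is thus 2.30-fold lower in the group labelled HSF V30M, a log2 ratio of -0.98 with 1 FPKM added to both values. The fragments behind the values number between 9 and 176 in HSF V30M and between 16 and 331 in HSF WT, depending on the transcript, and the interval of the ratio runs from 0.168 to 1.06 with the shortest transcript and from 0.355 to 0.529 with the longest. Hoxa3 spans much of the cluster, overlaps exons of Gm28308 on its own strand and of 5730596B20Rik, Gm29430, Hoxaas2 and Hoxaas3 on the other, and its locus in the table holds 12 genes, so its share of the reads is uncertain. The 6 Hox genes of that locus, Hoxa2 to Hoxa7, summed to 13.8 and 16.4 FPKM, a ratio of 0.840 (interval 0.658 to 1.08). For the whole Hoxa cluster the sums were 24.2 and 27.1 FPKM and the ratio 0.893 (interval 0.746 to 1.07).

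The Hoxb cluster (chromosome 11, from 96194316 to 96368256, plus strand) had the largest ratio of the 4 cluster sums. Its sum was 14.4 FPKM in HSF V30M and 7.98 FPKM in HSF WT, a 1.80-fold higher level in the group labelled HSF V30M (interval 1.48 to 2.19). All 7 Hoxb genes with a mean of at least 1 FPKM were higher in HSF V30M, by 1.46-fold to 3.34-fold on the FPKM as deposited. With 1 FPKM added to both values, the median log2 ratio was 0.44 for these Hoxb genes, -0.05 for Hoxa (2 of 6 higher), 0.06 for Hoxc (4 of 7 higher) and 0.34 for Hoxd (2 of 2 higher). The difference between the clusters was not tested, since genes of 1 cluster are not independent measurements.

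The Hoxb genes that were higher run from the hindbrain to the trunk. Hoxb2, which acts in the hindbrain and facial nerve nucleus, was at 2.43 FPKM in HSF V30M and 1.52 FPKM in HSF WT (ratio 1.60, interval 1.05 to 2.49). Hoxb4, widely studied in blood stem cells, was at 1.78 and 1.08 FPKM (ratio 1.64, interval 1.12 to 2.46). Hoxb6 was at 2.44 and 1.21 FPKM (ratio 2.02, interval 1.20 to 3.55) and Hoxb9, a gene of the thoracic level, at 1.62 and 0.781 FPKM (ratio 2.08, interval 1.29 to 3.45). The counting intervals of these 4 genes lie above 1. Hoxb3, a hindbrain and neck gene, had the largest ratio, 3.34, with 2.38 and 0.713 FPKM, but between 13 and 181 fragments in HSF V30M and between 3 and 44 in HSF WT, so that its interval runs from 0.743 to 30.7 with the shortest transcript and from 2.32 to 4.90 with the longest. Hoxb5 was at 1.24 and 0.850 FPKM and Hoxb7 at 2.26 and 1.45 FPKM, and their intervals span 1.

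Part of the Hoxb reads lie in loci that hold more than 1 gene, where the split between genes is uncertain. Hoxb2 and Hoxb3 share a locus with the antisense gene Hoxb3os, and Hoxb5 and Hoxb6 with Hoxb5os. The 6 Hoxb members that are alone in their locus summed to 5.88 FPKM in HSF V30M and 3.69 FPKM in HSF WT, a ratio of 1.59 (interval 1.20 to 2.13), and the 4 in shared loci to 8.49 and 4.29 FPKM, a ratio of 1.98 (interval 1.51 to 2.61). Both parts of the cluster were thus higher in HSF V30M. Hoxb3os itself, at 1.04 and 1.26 FPKM, and Hoxb5os, at 0.21 and 0.365 FPKM, were not.

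**Figure D3:**
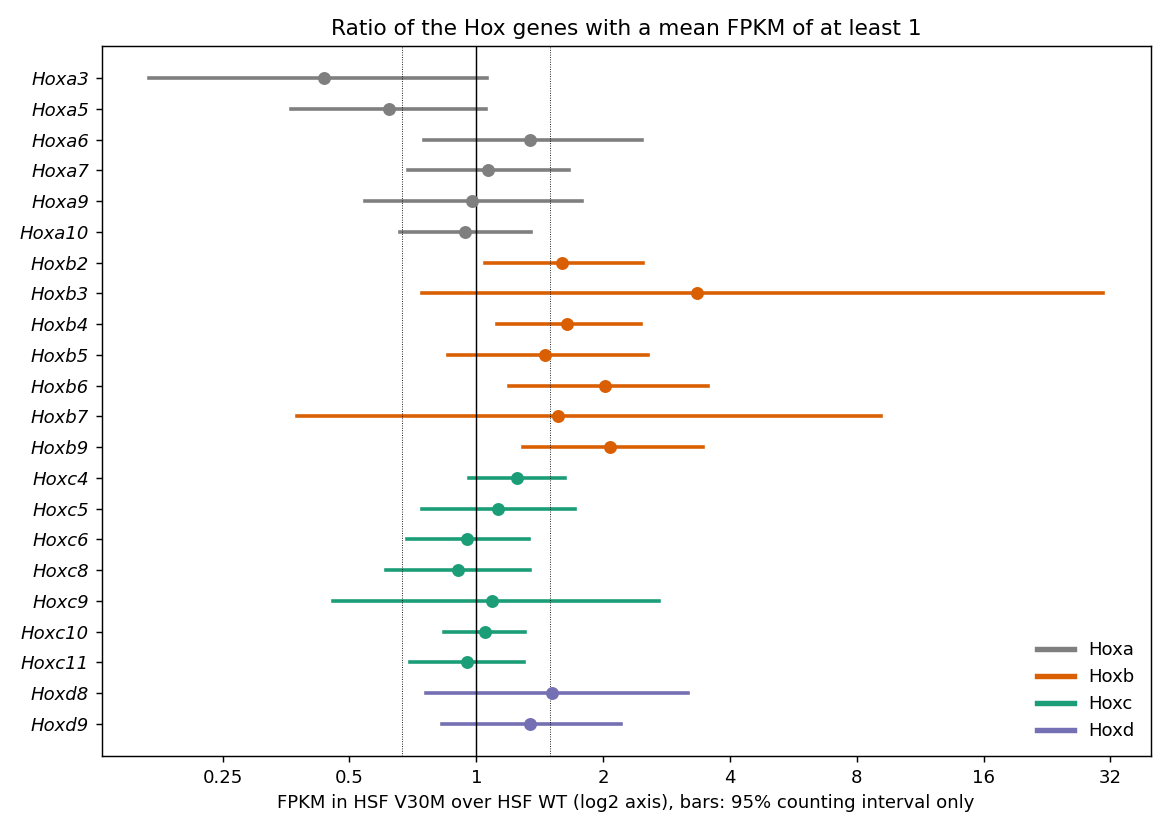
Ratio of FPKM, HSF V30M over HSF WT (log2 axis), of the 22 Hox genes with a mean of at least 1 FPKM, coloured by cluster; bars are exact 95% intervals for counting error with the shortest transcript, the solid line is a ratio of 1 and the dotted lines a 1.5-fold difference. All 7 Hoxb genes lie to the right of the solid line, and Hoxa3 lies farthest to the left.

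The ends of the Hoxb cluster were off. Hoxb1, which specifies a segment of the hindbrain, and Hoxb13, a gene of the tail and prostate, were listed at 0 in both groups, where a count of 0 allows up to 0.241 and 0.334 FPKM for Hoxb1 and up to 0.0697 and 0.0968 FPKM for Hoxb13 in HSF V30M and HSF WT. Within the cluster Hoxb8 stood out, at 0.22 FPKM in HSF V30M and 0.380 FPKM in HSF WT. Its neighbours Hoxb7 and Hoxb9 were at 2.26 and 1.62 FPKM in HSF V30M and at 1.45 and 0.781 FPKM in HSF WT. Hoxb8 is the 1 Hoxb member above 0 that was not higher in HSF V30M, with between 2 and 14 fragments in HSF V30M and between 3 and 19 in HSF WT, and an interval of its ratio from 0.0419 to 7.98.

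Hoxb8 is the Hox gene with the closest match to a microRNA of the clusters, and whether this bears on its level was not tested. The clusters encode microRNAs of the miR-10 and miR-196 families, which are known to act on Hox messages, and miR-196 is known to direct the cleavage of Hoxb8 RNA. The mature sequences are shown, from RefSeq for GRCm38.p6, with the seed (bases 2 to 8) in capitals, to show the shared seed of each family.
miR-10a-5p: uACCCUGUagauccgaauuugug
miR-10b-5p: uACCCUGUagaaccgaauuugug
miR-196a-5p: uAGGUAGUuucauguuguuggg
miR-196b-5p: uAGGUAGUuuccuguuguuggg

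The site in Hoxb8, after its stop codon at chr11:96284888-96284909 on the plus strand of GRCm38, is shown because it pairs with miR-196a-5p along its whole length. It is read from the GENCODE transcript, and capitals mark the bases that form Watson-Crick pairs.
Hoxb8 site: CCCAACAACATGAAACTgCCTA
All 22 bases pair, 21 as Watson-Crick pairs and 1 as a G-U pair. Of 20961 genes scanned without gaps after the stop codon, 2 paired at all 22 bases, the other being Rps6ka2 with 12 Watson-Crick and 10 G-U pairs, and the median of the best sites was 17. The seed match of miR-196, the letters ACTACCT, was present after the stop codon of 9 of 39 Hox genes (23.1%) and of 5.93% of 21707 genes, and that of miR-10, ACAGGGT, of 4 of 39 (10.3%) and 12.1%. Hox genes that hold the miR-196 letters include Hoxa7, Hoxa9, Hoxb6, Hoxb7 and Hoxc8, all at or above 1 FPKM, and Hoxa4 and Hoxb1, both below. Hoxa5, at 0.81 FPKM in HSF V30M and 1.31 FPKM in HSF WT, holds them too. Hoxb8 does not, since the G-U pair of its site falls within the seed match. The genes Mir10a, Mir10b, Mir196a-1, Mir196a-2 and Mir196b were listed at 0 in both groups, and the table gives no measure of the mature microRNAs.

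The Hoxd cluster (chromosome 2, from 74668310 to 74765142, plus strand) was on only in its middle. Hoxd8 was the highest member, at 3.75 FPKM in HSF V30M and 2.48 FPKM in HSF WT, with an interval of its ratio from 0.758 to 3.18. Hoxd4 was at 1.29 and 0.627 FPKM (ratio 2.06, interval 1.01 to 4.54) and Hoxd9, a gene of the lumbar region and hindlimb, at 1.27 and 0.947 FPKM. Hoxd1 was at 0.03 and 0.0389 FPKM, and Hoxd3 at 0.36 and 0.459 FPKM, with exons shared with Hoxd4. The sum of the cluster was 6.83 FPKM in HSF V30M and 4.73 FPKM in HSF WT, a ratio of 1.44 (interval 1.05 to 2.003). Hoxd3, Hoxd4 and Hoxd8 share a locus of 9 genes, and Hoxd4 also overlaps Gm28230 on its own strand. In that locus the Hox genes summed to 5.40 and 3.57 FPKM, and all genes to 7.23 and 6.06 FPKM. The split of reads is thus uncertain for Hoxd4, Hoxd8 and the cluster sum.

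The level in the Hoxd cluster stopped between Hoxd9 and Hoxd10. Hoxd1 to Hoxd9 summed to 6.70 FPKM in HSF V30M and 4.55 FPKM in HSF WT, and Hoxd10 to Hoxd13 to 0.13 and 0.178 FPKM, all of it from Hoxd10, a gene of lumbar motor neurons. Hoxd11, Hoxd12 and Hoxd13, which pattern the lower limb and digits, were listed at 0 in both groups. In HSF WT this allows at most 0.213 FPKM for Hoxd11, 0.0832 for Hoxd12 and 0.0851 for Hoxd13. Hoxd10 and Hoxd11 overlap Gm28309 on their own strand, in a locus of 3 genes that summed to 0.13 and 0.559 FPKM. The split of reads is thus uncertain for Hoxd10 and Hoxd11, and the limit for Hoxd11 leaves it out. Paralogue group 10 was on in the other clusters that have it. Hoxa10 and Hoxc10 were at 4.19 and 5.54 FPKM in HSF V30M and at 4.45 and 5.29 FPKM in HSF WT.

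The promoters of Hoxd9 and Hoxd10 are shown because the level drops between them, and that of Hoxb4 because it is the 1 Hoxb gene at or above 1 FPKM with an entry in the promoter table used. Each runs from 250 bases before to 50 bases after a RefSeq start in GRCm38.p6, with CG dinucleotides in capitals.
Hoxd9 promoter, chr2:74697513-74697812, plus strand: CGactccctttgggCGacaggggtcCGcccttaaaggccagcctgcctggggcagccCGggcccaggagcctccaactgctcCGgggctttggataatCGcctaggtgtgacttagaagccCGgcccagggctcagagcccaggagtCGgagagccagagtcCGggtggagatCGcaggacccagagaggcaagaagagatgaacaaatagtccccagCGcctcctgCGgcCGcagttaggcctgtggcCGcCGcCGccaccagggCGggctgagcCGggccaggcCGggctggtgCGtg
Hoxd10 promoter, chr2:74691641-74691940, plus strand: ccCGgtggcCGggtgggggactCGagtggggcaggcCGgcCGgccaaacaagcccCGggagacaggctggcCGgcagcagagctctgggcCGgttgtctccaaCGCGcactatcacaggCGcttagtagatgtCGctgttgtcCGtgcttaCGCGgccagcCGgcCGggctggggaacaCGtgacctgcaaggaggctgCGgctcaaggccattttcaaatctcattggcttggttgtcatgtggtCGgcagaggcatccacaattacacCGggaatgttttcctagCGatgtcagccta
Hoxb4 promoter, chr11:96318017-96318316, plus strand: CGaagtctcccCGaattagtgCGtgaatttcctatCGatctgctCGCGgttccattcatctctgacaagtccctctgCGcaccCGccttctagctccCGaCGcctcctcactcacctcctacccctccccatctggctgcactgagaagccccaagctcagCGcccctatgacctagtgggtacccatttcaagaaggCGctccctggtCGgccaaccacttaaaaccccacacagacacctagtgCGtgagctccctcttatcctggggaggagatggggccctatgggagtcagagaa
The Hoxd9 promoter holds 20 CG dinucleotides, that of Hoxd10 22 and that of Hoxb4 14, against a median of 7 over 32851 promoters. Hox promoters were rich in CG whether or not the gene was on. Of 24 promoters of 22 Hox genes, 20 were above that median, the 12 promoters of genes that reached 1 FPKM in a group had a median of 13 (range 4 to 29), and the 12 of the other genes a median of 17.5 (range 4 to 45).

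Among the letters bound by known regulators of Hox genes, AGGTCA, the core of retinoic acid receptor sites, was present on either strand in 7 of the 24 Hox promoters (29.2%) and in 16.3% of all promoters. It was found in 5 promoters of genes at or above 1 FPKM (Hoxa5, Hoxb4, Hoxc4, Hoxd4 and Hoxd8) and in 2 of the others (Hoxd3 and Hoxd10). TGATNNAT, the site of Pbx and Hox protein pairs, was present in 4 of 24 (16.7%) and in 8.85% of all, and these 4 belong to Hoxa2, Hoxb1, Hoxb8 and Hoxd11, none of which reached 1 FPKM. These are matches of letters in a short window, and not a measure of binding.

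A difference was counted when it passed 1.5-fold after 1 FPKM was added to both values, among genes with a mean of at least 1 FPKM. By that rule 2 of 22 Hox genes were higher in the group labelled HSF V30M, Hoxb3 and Hoxb6, against 8.22% of all 15620 genes, and 1 was lower, Hoxa3, against 8.44% of all. As shares of the 22 these are 9.09% and 4.55%, near or below the shares of all genes. Without a size limit 15 of the 22 were higher and 7 lower, where 50.4% of all genes were higher and 49.6% lower, and the median log2 ratio was 0.18 against 0.00 for all genes. Among the 9335 genes whose mean lies between 1 FPKM and that of the highest Hox gene, 8.9% were higher and 10.3% lower by the same rule, and 49.5% were higher and 50.5% lower at any size. By counting error alone, the interval of the ratio lay above 1 for 6 of the 34 Hox genes above 0 (Hoxa2, Hoxb2, Hoxb4, Hoxb6, Hoxb9 and Hoxd4) and below 1 for 0 of them. With the longest transcript in place of the shortest, it lay above 1 for 8, with Hoxb3 and Hoxd8 (1.19 to 1.93) added, and below 1 for 1, Hoxa3. How many of all genes have such an interval was not counted, and the intervals leave out variation between mice. These counts are therefore not read as a result about the Hox genes. The added 1 FPKM weighs on the Hoxb genes, whose levels are near 1, and with 0.1 FPKM added 6 Hox genes were higher, all of them Hoxb (Hoxb2, Hoxb3, Hoxb4, Hoxb6, Hoxb7 and Hoxb9), against 10.9% of all genes, and 2 were lower (Hoxa3 and Hoxa5), against 10.8%.

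Hox proteins bind DNA together with TALE homeodomain partners, and all 9 partner genes had a mean of at least 1 FPKM. Pbx2 was the highest, at 31.5 FPKM in HSF V30M and 25.7 FPKM in HSF WT. Pbx4 passed 1.5-fold as higher in HSF V30M, at 1.63 and 0.506 FPKM, and Pknox1 as lower, at 6.12 and 11.1 FPKM. Over all genes 8.22% were higher and 8.44% lower. The sum over the partners was 99.3 FPKM in HSF V30M and 95.9 FPKM in HSF WT.

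Among genes that act upstream of Hox genes in the embryo, 3 of the 9 regulators with a mean of at least 1 FPKM were higher in HSF V30M and 0 lower, beside 8.22% and 8.44% of all genes. All 3 act in retinoic acid signalling, to which 5 of the 9 belong (Rara, Rarb, Rarg, Aldh1a2 and Cyp26b1). Aldh1a2, the enzyme that makes retinoic acid in the embryo, was at 7.32 FPKM in HSF V30M and 1.65 FPKM in HSF WT. Cyp26b1, which breaks retinoic acid down, was at 15.4 and 7.35 FPKM, and Rara, a retinoic acid receptor, at 20.6 and 11.5 FPKM. The ratios of the other receptors were nearer 1, with Rarb at 3.23 and 2.94 FPKM and Rarg at 42.6 and 36.5 FPKM. Egr2, which acts on Hox genes in the hindbrain and drives myelination in Schwann cells, was the highest of the list, at 102 and 74.2 FPKM. The Cdx genes, which act on Hox genes of the trunk, were at or below 0.0418 FPKM, and whether the retinoic acid genes bear on the Hoxb level was not tested.

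Polycomb proteins keep Hox genes off and trithorax proteins keep them on. Of 18 Polycomb genes, 2 were lower in HSF V30M, Cbx8 at 2.38 and 5.87 FPKM and Rnf2 at 5.55 and 10.6 FPKM, and none was higher, with a median log2 ratio of -0.07. Of 11 genes, made up of trithorax genes, H3K27 demethylases and Ctcf, none passed in either direction, with a median of -0.01. Ezh2, which writes the repressive mark on Hox genes, was at 12.7 and 12.3 FPKM. The shares of all genes that passed in either direction are those given above.

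The genes around the clusters had ratios near 1. Of 10 flanking genes with a mean of at least 1 FPKM none passed 1.5-fold, with a median log2 ratio of -0.05. Next to the Hoxb cluster, Snx11 was at 17.7 and 15.4 FPKM, Cbx1 at 13.7 and 15.3 FPKM and Ttll6 at 0.83 and 0.654 FPKM. Next to the Hoxd cluster, Lnpk was at 8.48 and 6.99 FPKM and Mtx2 at 4.06 and 4.43 FPKM, while Evx2, the homeobox gene beyond Hoxd13, was at 0.04 and 0.0162 FPKM. Evx1, beyond Hoxa13, was listed at 0 in both groups. Hnrnpa1, the highest of the list, was at 50.4 and 50.7 FPKM.

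None of the 5 non-coding genes of the clusters with a mean of at least 1 FPKM passed 1.5-fold either. Hotairm1, which lies next to Hoxa2, was the highest, at 2.54 and 2.02 FPKM. Hotair, which lies between Hoxc11 and Hoxc12, was at 0.79 and 0.508 FPKM. Hottip, beyond Hoxa13, was listed at 0 in both groups, like Evx1 on its far side. Hoxd3os1 was at 1.45 and 2.203 FPKM.

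**Figure D4:**
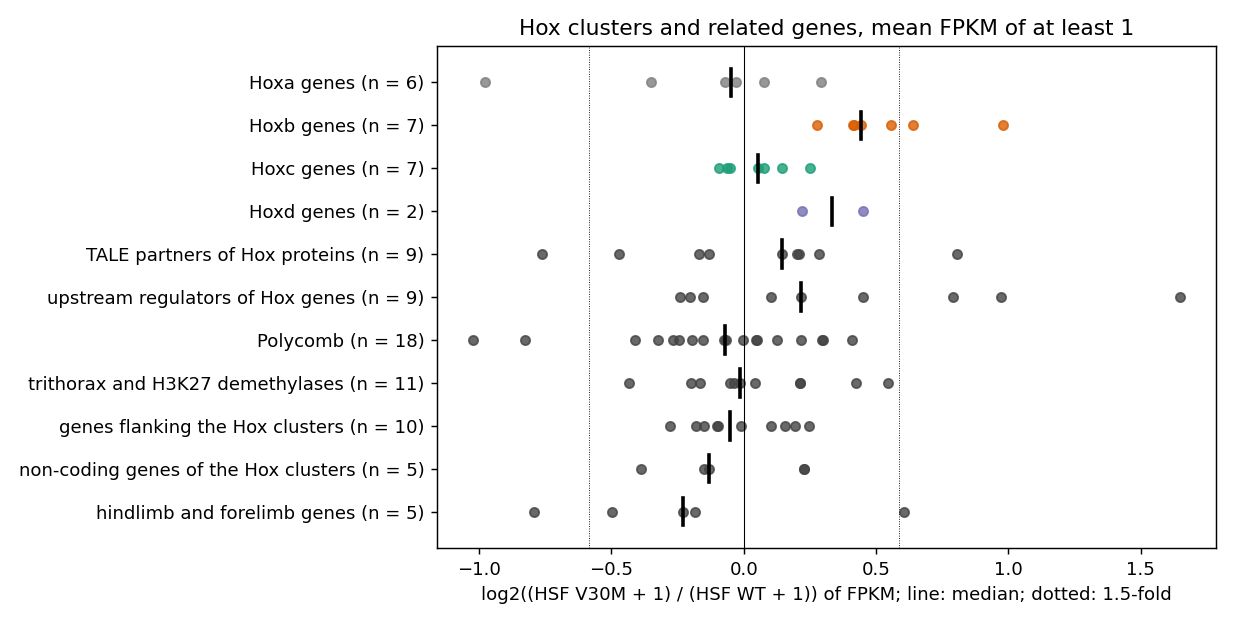
log2 ratio of HSF V30M to HSF WT, with 1 FPKM added to both values, of the Hox genes by cluster and of related gene lists, for genes with a mean of at least 1 FPKM; each point is a gene, the bar the median of its list and the dotted lines a 1.5-fold difference. The 7 Hoxb genes have a median of 0.44, against -0.05 for the flanking genes and -0.07 for Polycomb genes, and Aldh1a2, with the largest ratio shown, is among the upstream regulators.

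Other genes of limb position were mostly low. Prrx1, a limb mesenchyme gene, was at 16.8 and 19.9 FPKM. The hindlimb genes Pitx1 and Tbx4 were at 0.60 and 0.0900 FPKM in HSF V30M and at 0.595 and 0.0817 FPKM in HSF WT, and the forelimb gene Tbx5 at 0.16 and 0.325 FPKM. Of the 5 genes of the limb list with a mean of at least 1 FPKM, Tbx18 passed 1.5-fold as higher in HSF V30M, at 6.05 and 3.63 FPKM. Prrx2 passed as lower, at 1.5 and 3.33 FPKM, beside 8.22% of all genes higher and 8.44% lower. All 6 ParaHox genes were below 1 FPKM.

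Marker genes of some cell types also differed in level between the groups, and whether the cell makeup differed was not tested. The labelled tissue was borne out by its markers, with 6 Schwann cell genes summing to 12230 FPKM in HSF V30M and 10791 FPKM in HSF WT. Markers of fibroblasts (6 genes, 2206 and 2267 FPKM), perineurium (4 genes, 487 and 414 FPKM) and endothelium (6 genes, 121 and 122 FPKM) held no gene past 1.5-fold. Over all genes 8.22% were higher and 8.44% lower by that rule, and a count of 1 gene in a short list is not read as a difference. Lower in HSF V30M were 5 of 5 skeletal muscle genes with a mean of at least 1 FPKM (sums of 35.0 and 116 FPKM), 2 of 4 adipocyte genes (1123 and 1699 FPKM), 1 of 4 macrophage genes (65.1 and 89.8 FPKM) and 2 of 2 B cell genes (1.26 and 11.2 FPKM). Higher, among genes with that mean, were 3 of 3 neutrophil genes (86.1 and 20.5 FPKM) and 2 of 3 erythrocyte genes (120 and 43.1 FPKM). So was 1 of 3 genes of neuron cell bodies (11.1 and 7.17 FPKM). No marker was at 0 in both groups. The sums are over all listed genes and include those below that mean. Of these, Ly6g of neutrophils (0.12 and 0.195 FPKM), Isl1 of neurons (0 and 0.0415) and Ms4a1 of B cells (0.02 and 0.807) were lower in HSF V30M. Myh1 of muscle (0.53 and 0.224 FPKM) and Avil of neurons (0.61 and 0.205) were higher. The part of these cells in the levels of the Hoxb genes and of Hoxa3 was not tested.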

How the data were processed

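RNA of sciatic nerve from the mice labelled HSF V30M and HSF WT was made into Ion Torrent libraries. The authors' alignment was, per the labels and the methods, to GRCm38, whose reference strain is C57BL/6J, and the submitters' processing notes name STAR, Cufflinks and Cuffdiff, with versions and annotation not given in the sources used here. The authors deposited 1 Cuffdiff table with decimal commas, which holds 1 FPKM value per gene and group, estimated over the libraries of the group, in HSF V30M rounded to 2 decimals. The table also holds the fold changes, p-values and q-values of the authors' comparison, none of which was used. The 23 genes that Cuffdiff gave no estimate for, because of too many alignments, were left out.

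Ratios, folds and their intervals are HSF V30M over HSF WT on the FPKM as deposited. A log2 ratio of a gene was taken after a pseudocount of 1 was added to both values, and genes with a mean of at least 1 FPKM and such a ratio past 1.5-fold were counted. The members and gene lists were chosen with earlier results of these data known. Values are given for each Hox gene with at least 1 FPKM in a group or past the fold, the others by value, range or as listed at 0. Of the other lists the genes past the fold, the highest gene and genes next to a Hox cluster are named; further list genes named beside them (Rarb, Rarg, the Cdx genes, Ezh2 and limb genes) were chosen after their values were seen. The worth of 1 fragment per kilobase was read from low single-transcript genes with effective lengths for fragments of 200 ± 80 bases. It came to 0.0481 and 0.0647 FPKM for the libraries of HSF WT, 1.35-fold apart in depth, with 98.3% of 1146 values within 2% of a whole number, and to 0.0392 and 0.0466 FPKM for those of HSF V30M, with 88.8% of 447 values within 5%. Fragment numbers give exact (Clopper-Pearson) 95% intervals of a ratio, and a count of 0 allows up to 3 fragments on the shortest transcript. Steps were tested on simulated data. Transcripts and gene positions came from GENCODE for GRCm38, and promoters and microRNAs from RefSeq. No Hox protein sequence was used here, and a few listed genes, with 1 member among them, are counted in the totals but not reported here. Python 3.11.15, numpy 2.4.6, scipy 1.17.1 and matplotlib 3.10.9 were used. Alternatives were a pseudocount of 0.1 or none, a minimum mean of 5 FPKM or none, a 2-fold limit, median-of-ratios scaling, cluster sums without the highest member, and members alone in their locus.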

Additional observations from a re-analysis of the deposited data

How the results depend on the processing

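Which Hox genes pass the fold depends on the limits. With a pseudocount of 0.1, 6 were higher in HSF V30M and 2 lower, beside 10.9% and 10.8% of all genes, and without a pseudocount, a setting chosen after seeing the data, 7 and 2, beside 11.3% and 11.2% of all genes. With a 2-fold limit 0 were higher and 0 lower, beside 3.98% and 3.94%. With a minimum mean of 5 FPKM 5 Hox genes remained for the count, of which 0 passed the fold in either direction, beside 7.17% and 6.33% of all genes, and 3 were higher and 2 lower at any size. Without a minimum, 23 were higher and 11 lower at any size. The log2 ratio of the Hoxc sum was 0.06 and became 0.23 with the members alone in their locus, a setting also chosen after seeing the data. Of 46 values of single genes under a pseudocount of 0.1 and median-of-ratios scaling, none changed direction, and that of Hoxb3 rose from 0.98 to 1.61 with the smaller pseudocount. No paired analysis was possible because the deposited values are 1 per group, and for the same reason no replicate could be left out. Depth limits the ratios of members with few fragments in HSF WT, among them Hoxb3 with as few as 3 and Hoxd3 and Hoxc12 with as few as 2.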
